A study of Oryza sativa with 4 samples.

Results

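The transcripts of developing grain were set against those of the root within the rice cultivar Sharbati, from 1 poly(A) RNA library of each organ. Those are 2 of the 4 libraries of the series, and the other two come from grain and root of the cultivar Lalat. Loci were matched between the organs by their locus identifier, and 12648 of the 31453 loci with a value in any library could be compared, because they stood above 0 in both Sharbati libraries and reached 1 FPKM in at least 1. FPKM is the number of sequenced fragments of a transcript, scaled by its length and by the size of the library. Sharbati is the cultivar with the higher grain iron, 24.88 ppm against 7.80 ppm in Lalat, and its plants grew in pots of soil and manure in a net house. Both organs were collected 15 days after panicle emergence, during grain filling, so cultivar, age and growing conditions are shared by both sides. The organ differs, and so do the depth of the libraries and their normalization, as given below. Each organ had 1 library, so no difference below has a replicate check, no test was made, and every statement compares 2 libraries.

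The rice grain at this stage is mostly starchy endosperm, which imports sucrose, converts it to starch in plastids, and makes storage proteins on the endoplasmic reticulum, with prolamins kept in bodies of that membrane and glutelins sent to vacuoles. An outer aleurone layer and the embryo hold oil and phytate, the main store of phosphorus and a strong binder of iron and zinc. The root takes up silicon, nitrogen, phosphorus and metals, loads iron into the xylem with citrate and phenolics as helpers, and meets the soil with lignified walls, peroxidases and defence proteins.

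The Sharbati grain library listed 25305 loci above 0 and the Sharbati root library 15584. At 1 FPKM or more the order was turned round, with 11218 loci in grain and 13213 in root. The grain signal was concentrated in few loci: its 100 highest loci held 72.6% of the summed FPKM, against 41.5% for the 100 highest of root. The smallest values show that the root library was much shallower. Over 1 kilobase of gene, 1 fragment was worth 0.0333 FPKM in grain and 1.06 FPKM in root, a 32.0-fold gap, so a root value of a few FPKM rests on a few fragments, and a root value of 0 says little about a transcript below about that level. The grain tables and the root tables were also normalized separately, so ranks within a library are given beside ratios.

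A locus is called higher or lower in grain below when it differed by 2-fold or more on the scale log2((grain FPKM + 1)/(root FPKM + 1)), which all log2 ratios use. Of the 12648 loci compared, 1771 (14.0%) were called higher in grain and 6455 (51.0%) lower. The median log2 ratio was -1.04, so a typical compared locus had less FPKM in grain, and each value below is to be read against that shift. Scaling the libraries by the median ratio of loci at 10 FPKM or more in both moved it to -0.90, and equal totals without the 100 highest loci of each to -0.73. By percentile rank within each library the split was even, with 3068 loci at least 20 points higher in grain and 2891 at least 20 points lower. A comparison needs both values above 0, and 3429 of the lower loci stood under 1 FPKM in grain, a level that the shallower root library could rarely register. Among the 2606 loci at 10 FPKM or more in both, the median log2 ratio was -0.23, with 441 higher and 738 lower in grain.

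The organs shared little of their order. Across the 13765 loci above 0 in both libraries, Spearman's rho of FPKM was 0.49, a description across genes that are not independent and whose low root values rest on few fragments. The 100 highest loci of grain and the 100 highest of root had 9 loci in common. The highest of these in grain was DEF8 (LOC_Os03g03810), a defensin-like protein, at 9633 FPKM in grain and 1897 in root. Most of the others were of general cell functions, among them 2 ubiquitin family loci, the ribosomal protein S27 locus LOC_Os04g32710 at 1174 FPKM in grain and 1477 in root, and the translation initiation factor SUI1 locus LOC_Os07g34589 at 1910 and 2823. Of the 100 highest grain loci, 75 were above 0 in root, as were 13765 of all 25305 grain loci. The median root rank of these 75 was 5996. Of the 100 highest root loci, 91 were above 0 in grain, as were 13765 of all 15584 root loci. The median grain rank of these 91 was 1346.

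**Figure D1:**
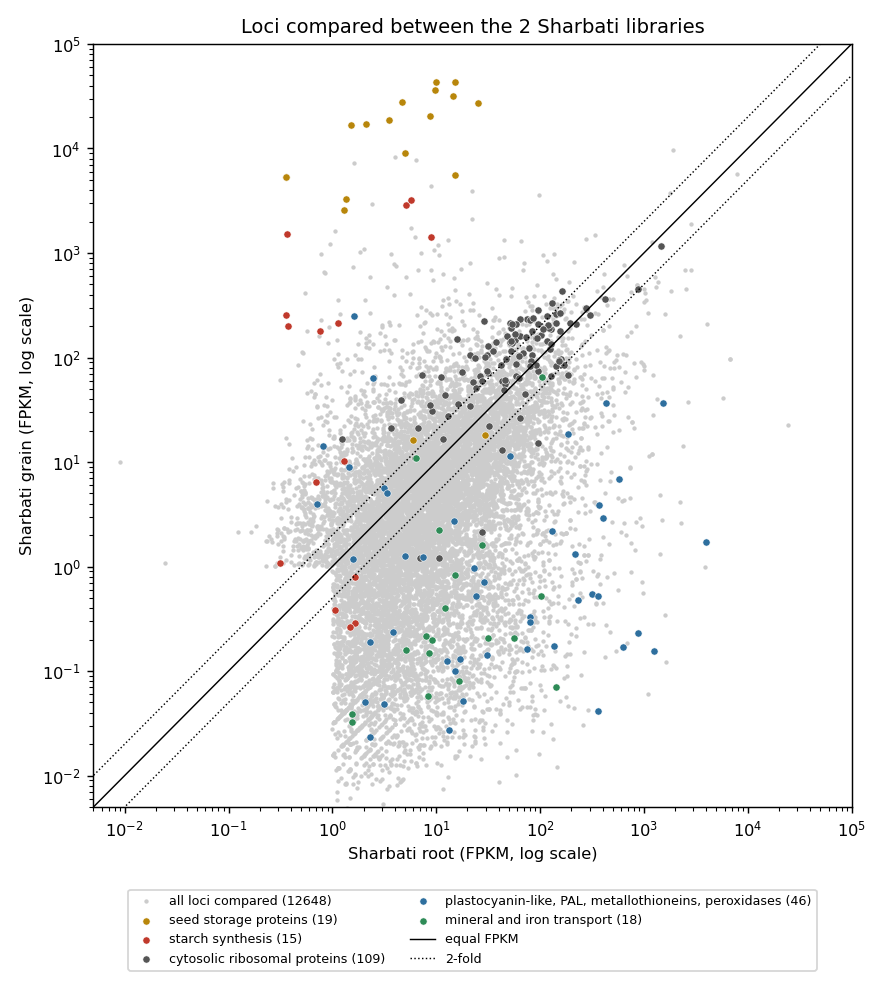
Each point is a locus compared, with FPKM in Sharbati root on the horizontal and in Sharbati grain on the vertical axis, both on log scales. Colours mark gene lists, the solid line is equal FPKM and the dotted lines 2-fold, and 17 loci under 0.005 FPKM in either library fall outside the axes. Storage protein and starch loci lie far above the line, cytosolic ribosomal proteins close to it, and mineral transporters, plastocyanin-like proteins and phenylalanine ammonia-lyases (PAL) mostly below it.

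Storage proteins led the grain library. The 54 loci described as glutelins, prolamins, seed allergenic proteins or 2S albumins made up 55.3% of the summed FPKM in grain and 0.0493% in root. Of these loci, 39 were above 0 in grain, 34 in root and 19 in both. Over those 19, the plain grain to root ratio had a median of 2851 and ran from 0.614 to 14955. The only member under 1 in that range was the 2S albumin SSA2 (LOC_Os03g55730), at 18.1 FPKM in grain and 29.6 in root, the highest root value of any storage locus.

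The seed allergenic proteins are small inhibitor-like proteins of the endosperm and the aleurone. RAL4 (LOC_Os07g11380) held the first rank in grain at 43315 FPKM and stood at 9.85 FPKM, rank 5930, in root. RAL6 (LOC_Os07g11510) stood at 27670 FPKM in grain and 4.70 in root, and RAL5 (LOC_Os07g11410) at 18891 and 3.50. The 6 RAL loci lie together on chromosome 7, between positions 6241367 and 6336920 in the deposited tables (build not given in the sources used here). RAL1 (LOC_Os07g11320), the first of them by position, reached only 1.02 FPKM in grain and was not listed in root. The 2S albumin SSA1 (LOC_Os05g41970), on chromosome 5, was second in grain at 42860 FPKM and stood at 15.0 FPKM in root. Across the 8 RAL and albumin loci compared, 7 were called higher in grain, where 14.0% of all loci were, and their median log2 ratio was 11.21 against -1.04 over all loci.

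Prolamins, the alcohol-soluble storage proteins, filled 18 of the 100 highest places in grain. PROLM4 (LOC_Os05g26350) had the highest log2 ratio of all loci compared, 12.72, from 16881 FPKM in grain and 1.5 in root. PROLM16 (LOC_Os05g26720) followed at 17271 and 2.09 FPKM, a log2 ratio of 12.45. PROLM29 (LOC_Os12g17010) stood at 36066 FPKM in grain and 9.66 in root, and PROLM24 (LOC_Os06g31070) at 27409 and 25.5. All 9 prolamin loci compared were called higher in grain, and another 12 were above 0 in grain only. Among these, PROLM20 (LOC_Os07g11910) stood at 41724 FPKM and PROLM19 (LOC_Os07g11900) at 23282 FPKM, both listed at 0 in root, and PROLM22 (LOC_Os07g11920), at 36617 FPKM, was not listed in root. Of the 21 prolamin loci above 0 in grain, 12 lie on chromosome 5 between positions 15266309 and 15530862 and 4 on chromosome 12 between 9686914 and 9741206. PROLM3, PROLM6 and LOC_Os05g26400 carry the same interval and the same pair of values, 5381 and 0.360 FPKM, and reads of near-identical prolamin copies can be split between them, so the level of any one copy is uncertain.

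Glutelins, the main storage protein of rice, were only partly listed in grain. LOC_Os02g14600 stood at 3297 FPKM in grain and 1.35 in root, and LOC_Os02g15070 at 2564 and 1.31. GluD1 (LOC_Os02g15090) reached 4879 FPKM in grain and was listed at 0 in root. In the other direction, 12 storage loci were above 0 in root and not listed in grain, among them GluA1 (LOC_Os01g55690) at 14.2 FPKM, GluA3 (LOC_Os03g31360) at 13.8 and GluC (LOC_Os02g25640) at 11.6. A further 3 were listed at 0 in grain, namely GluA2 (LOC_Os10g26060), PROLM25 and PROLM26, whose root values were 12.1, 12.6 and 28.8 FPKM. An entry that is absent is not a level of 0, so nothing is said here of these glutelins in grain.

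Storage transcripts were also detected in root. Their root values above 0 ran from 0.360 to 29.6 FPKM with a median of 5.30, and they summed to 272 FPKM against 478535 in grain. In Lalat root the same loci made up 0.850% of the summed FPKM, against 0.0493% here. The part of grain RNA in the root library was not tested. In bulk samples such as these, fewer cells of a type and less RNA per cell cannot be told apart.

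Starch synthesis was the other clear mark of grain. AGPL2 (LOC_Os01g44220), the large subunit of the cytosolic ADP-glucose pyrophosphorylase of the endosperm, stood at 1410 FPKM in grain and 8.95 in root, a log2 ratio of 7.15. Its partner AGPS2 (LOC_Os08g25734) stood at 1444 FPKM in grain and was listed at 0 in root. BT1 (LOC_Os02g10800), the carrier that moves ADP-glucose into the plastid, stood at 611 FPKM and at 0. All 7 genes of ADP-glucose supply were above 0 in grain, and AGPL2 alone was above 0 in root.

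Among starch synthases, the isoforms known from endosperm were far higher in grain, and those known from leaves were low in both organs. Wx (LOC_Os06g04200), the granule-bound enzyme that makes amylose, stood at 2905 FPKM in grain and 5.14 in root, a log2 ratio of 8.89. SSIIa (LOC_Os06g12450), SSI (LOC_Os06g06560) and SSIIIa (LOC_Os08g09230), which extend amylopectin chains, stood at 255, 179 and 227 FPKM in grain and at 0.359, 0.753 and 0 in root. GBSSII (LOC_Os07g22930), the granule-bound form of leaves, stood at 0.785 and 1.66 FPKM, and SSIIIb (LOC_Os04g53310) at 0.289 and 1.65. Of the 8 synthases compared, 5 were called higher in grain and SSIIIb was called lower, and the median log2 ratio was 2.21. Wx ranked 41 in grain and 8301 in root.

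Branching and debranching enzymes shape amylopectin. BEI (LOC_Os06g51084) stood at 3229 FPKM in grain and 5.72 in root. BEIIb (LOC_Os02g32660), the endosperm form, stood at 1507 and 0.363 FPKM, a log2 ratio of 10.11. The debranching enzyme ISA1 (LOC_Os08g40930) stood at 214 and 1.13 FPKM, and the plastid phosphorylase PHO1 (LOC_Os03g55090) at 199 and 0.377. The cytosolic phosphorylase PHO2 (LOC_Os01g63270) stood at 0.387 FPKM in grain and 1.07 in root. Of 6 members compared, 4 were called higher and none lower in grain, and the median log2 ratio was 6.92. BEIIb went from rank 48 in grain to rank 14704 in root.

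**Figure D2:**
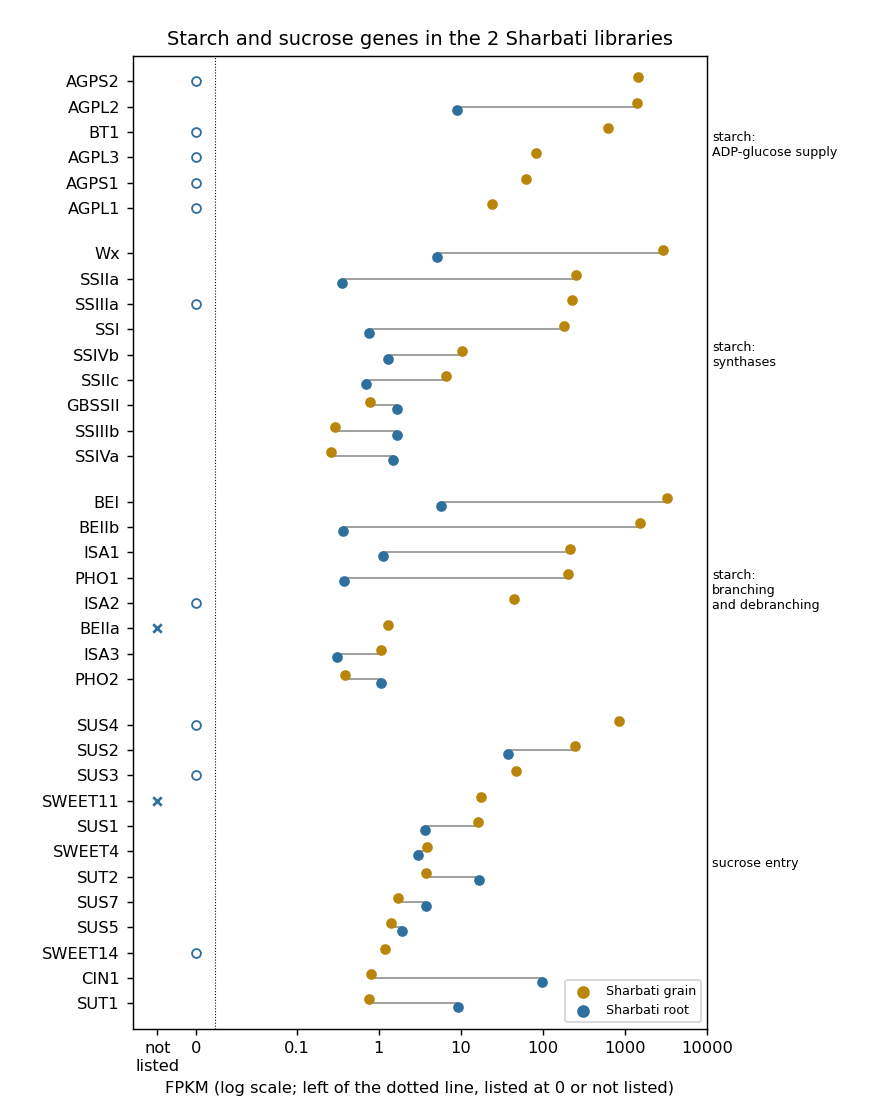
FPKM on a log scale of starch and sucrose genes that reached 1 FPKM in Sharbati grain (gold) or Sharbati root (blue), grouped by step, with grey bars joining values of the same gene. Open circles are values listed at 0 and crosses loci not listed. The grain value lies to the right for the endosperm isoforms, for example 1507 against 0.363 FPKM for BEIIb, and to the left for CIN1, SUT1 and SUT2.

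Genes of sucrose entry were mixed. SUS4 (LOC_Os03g22120) and SUS3 (LOC_Os07g42490), sucrose synthases that split sucrose for starch, stood at 838 and 46.6 FPKM in grain and were listed at 0 in root. SUS2 (LOC_Os06g09450) stood at 247 FPKM in grain and 37.1 in root. The sucrose exporter SWEET11 (LOC_Os08g42350) reached 17.7 FPKM in grain and was not listed in root. On the root side, the cell wall invertase CIN1 (LOC_Os02g33110), which splits sucrose outside the cell, stood at 97.8 FPKM against 0.809 in grain. The sucrose importers SUT1 (LOC_Os03g07480) and SUT2 (LOC_Os12g44380) stood at 9.08 and 16.5 FPKM in root against 0.759 and 3.72 in grain. Of 8 genes compared, 2 were called higher and 3 lower in grain, and the median log2 ratio was -0.52.

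Regulators of endosperm filling were among the clearest grain loci. RPBF (LOC_Os02g15350), a Dof factor that activates storage protein genes, stood at 882 FPKM in grain and its bZIP partner RISBZ1 (LOC_Os07g08420) at 192 FPKM. NF-YC12 (LOC_Os10g11580) stood at 752 FPKM, NAC20 (LOC_Os01g01470) at 613 and NAC26 (LOC_Os01g29840) at 466. All 5 were listed at 0 in root. FLO2 (LOC_Os04g55230), a repeat protein needed for a translucent endosperm, stood at 139 FPKM in grain and 0.916 in root. RSR1 (LOC_Os05g03040), an AP2 factor known to restrain starch synthesis genes, was on the root side, at 17.6 FPKM against 0.320 in grain. Of the 11 regulators listed, 9 were above 0 in grain only, as were 11540 of all 25305 grain loci. Of these 9, 6 reached 1 FPKM. NF-YB1, MADS6 and MADS29, also known from developing seeds, stood at 0.177, 0.201 and 0.190 FPKM in grain and were not listed in root.

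Secretory and nitrogen genes divided by isoform. The chaperone BiP1 (LOC_Os02g02410), which folds storage proteins, stood at 693 FPKM in grain and 68.1 in root, and VPE1 (LOC_Os04g45470), the protease that matures glutelins, at 145 and 2.26. The disulfide isomerase PDIL1-1 (LOC_Os11g09280) was high in both, at 390 and 207 FPKM. Pyruvate phosphate dikinase PPDKB (LOC_Os05g33570) stood at 394 FPKM in grain and 3.94 in root, and alanine aminotransferase AlaAT1 (LOC_Os10g25130) at 632 and 11.6. Cytosolic glutamine synthetases, which fix ammonium, split between organs. GS1;1 (LOC_Os02g50240) stood at 2.62 FPKM in grain and 643 in root, GS1;2 (LOC_Os03g12290), the root form, at 0.692 and 30.9, and GS1;3 (LOC_Os03g50490), known from spikelets, at 37.2 and 0.

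Embryo and aleurone genes were present in grain at lower levels. The oil body proteins OLE16 (LOC_Os04g46200) and OLE18 (LOC_Os03g49190) stood at 62.4 and 37.4 FPKM in grain and at 0 and 2.50 in root. EMP1 (LOC_Os05g28210), a small hydrophilic seed protein, stood at 287 FPKM in grain and was listed at 0 in root. The wider list of 39 late embryogenesis, dehydrin and oleosin loci was divided. Of 10 compared, 4 were called higher and 6 lower in grain, at a median log2 ratio of -2.23. That median became 2.50 when loci absent or at 0 were set to 0, because 28 members were above 0 in grain only. They were 28 of the 38 members above 0 in grain, against 11540 of all 25305 grain loci. Of these 28, 20 reached 1 FPKM. Its root side was led by the dehydrins LOC_Os02g44870, at 1506 FPKM against 2.77 in grain, and LOC_Os03g45280, at 677 against 1.99.

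Other loci filled the top of the grain library, and these were picked out after their values were seen. AWPM-19-like LOC_Os10g32720, of a membrane protein family known from maturing seeds, stood at 7185 FPKM in grain and 1.60 in root. GASR6 (LOC_Os05g35690), a gibberellin-regulated peptide, stood at 8381 and 3.99 FPKM. Lipid transfer proteins of the seed type, LTPL163 (LOC_Os07g11630) and LTPL166 (LOC_Os07g11310), stood at 12696 and 8315 FPKM and were listed at 0 in root. They lie near the RAL loci on chromosome 7, and LTPL164 (LOC_Os07g11650) stood at 7752 and 6.44 FPKM. The enzyme that turns UDP-glucose into glucose 1-phosphate on the way to starch, LOC_Os09g38030, stood at 796 FPKM in grain and 21.0 in root, and the aspartic protease oryzasin-1, LOC_Os01g47410, at 973 and 3.68.

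The lipid transfer family as a whole was divided. It summed to 33994 FPKM in grain and 4356 in root. Of its 109 listed members, 91 were above 0 in grain. Of these 91, 64 were above 0 in grain only, as were 11540 of all 25305 grain loci. Of these 64 members, 21 reached 1 FPKM in grain, and the rest stood below the value of 1 fragment over 1 kilobase in root. Of 27 members compared, 6 were called higher and 18 lower in grain, and their median log2 ratio of -1.91 turned to 1.62 over members at 10 FPKM or more in both and to 1.13 with absent loci set to 0. LTPL118 (LOC_Os03g50960) was the highest on the root side, at 3325 FPKM, and was listed at 0 in grain. LTPL104 (LOC_Os05g06780) stood at 184 FPKM in root and 0.111 in grain.

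The 100 highest root loci were of many kinds. The first was a plastocyanin-like protein, LOC_Os11g24140, of a copper-binding domain family, at 46573 FPKM in root and not listed in grain. The family as a whole, a list chosen after its values were seen, made up 10.0% of the summed root FPKM. LOC_Os11g24140 alone held 46573 of the family's 55304 FPKM. LOC_Os08g37670 stood at 1.71 FPKM in grain and 3923 in root, LOC_Os03g50160 at 0.155 and 1258, and LOC_Os08g37660 at 0.231 and 882. Of 12 members compared, 9 were called lower and 1 higher in grain, where 51.0% and 14.0% of all loci were. The exception, LOC_Os07g38290, stood at 63.6 FPKM in grain and 2.45 in root. Rank 2 in root was held by LOC_Os12g39930, described only as an expressed protein, at 24484 FPKM in root and 22.7 in grain. In Lalat root LOC_Os12g39930 stood at 185 FPKM, and the first root locus, LOC_Os11g24140, at 14243.

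The lowest log2 ratio of all loci compared belonged to a phytosulfokine precursor, the source of a sulfated peptide that promotes cell growth. This locus, LOC_Os12g05260, stood at 1.00 FPKM in grain and 3907 in root, a log2 ratio of -10.93 and a step from rank 11 in root to rank 11218 in grain. A second precursor, LOC_Os11g05190, stood at 0.282 and 322 FPKM. The list of phytosulfokine precursors and receptors was also chosen after its values were seen. In it, 7 of 10 members compared were called lower in grain and none higher, where 51.0% and 14.0% of all loci were. A flowering promoting factor-like locus, LOC_Os01g15340, stood at 0.347 FPKM in grain and 1602 in root. The transferase LOC_Os01g08380 stood at 0.0598 and 1098 FPKM, and the Bet v I family locus LOC_Os03g18850, related to defence proteins, at 1.32 and 1434.

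Phenylpropanoid genes were higher in root, and cell wall genes were mixed. Phenylalanine ammonia-lyase opens the path to lignin and phenolics. All 6 loci compared were called lower in grain, at a median log2 ratio of -5.81, where 51.0% of all loci were called lower and 14.0% higher. LOC_Os02g41630 was the highest, at 1529 FPKM in root and 36.6 in grain, and LOC_Os02g41680 stood at 360 and 0.519. Caffeoyl-CoA O-methyltransferase LOC_Os08g38900, a lignin enzyme picked out after its value was seen, stood at 747 FPKM in root and 0.890 in grain. All 5 dirigent loci compared, whose proteins guide the coupling of phenolics, were called lower in grain, at a median of -4.07. Cellulose synthases leaned to grain, with 8 of 15 loci compared called higher, 4 lower and a median of 1.08. CESA4 (LOC_Os01g54620), a subunit of secondary wall cellulose synthase, stood at 56.1 FPKM in grain and was listed at 0 in root. CSLF6 (LOC_Os08g06380), which makes the mixed-linkage glucan of endosperm walls, stood at 16.1 and 3.40 FPKM.

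Class III peroxidases, enzymes of wall stiffening and defence, were mostly on the root side among loci compared. Of 20 compared, 15 were called lower and 4 higher in grain, where 51.0% and 14.0% of all loci were, and the median was -3.84. Another 39 of the 62 above 0 in grain were above 0 in grain only, as were 11540 of all 25305 grain loci. Of these 39, 4 reached 1 FPKM, and 14 peroxidases were above 0 in root only. LOC_Os04g59190 stood at 626 FPKM in root and 0.171 in grain. The exceptions were strong, and LOC_Os03g55420 stood at 250 FPKM in grain and 1.61 in root, while LOC_Os01g10850 stood at 322 FPKM in grain and was listed at 0 in root. Cytochrome P450 loci were called lower in 33 of 40 compared and higher in 1, and glutathione S-transferases lower in 19 of 24 and higher in 2. Chitinases and thaumatins were lower in 14 of 18 and higher in 1. All 5 abscisic stress-ripening loci compared were called lower in grain, in a list chosen after its values were seen, led by LOC_Os11g06720 at 924 FPKM in root and 2.90 in grain.

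**Figure D3:**
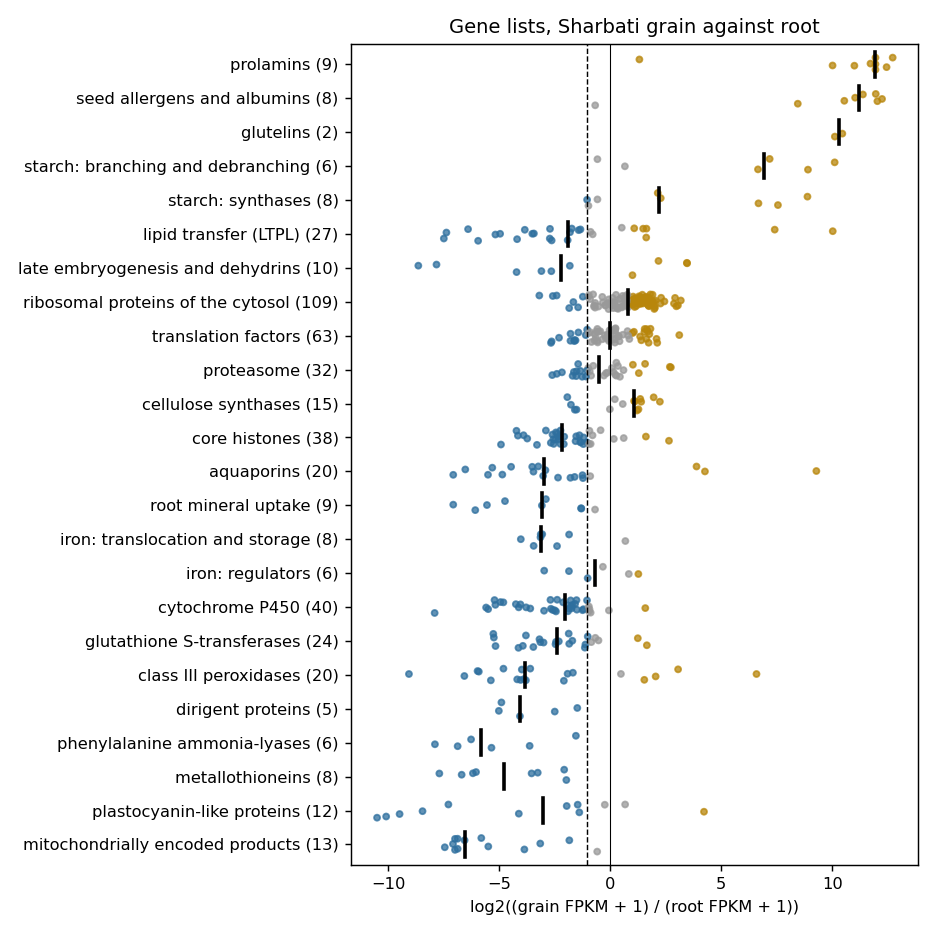
Each point is a locus of a gene list, placed by its log2 ratio of grain over root FPKM (pseudocount 1), gold at 1 or above, blue at -1 or below and grey between. The number of loci compared is in brackets, the thick bar is the list's median and the dashed line the median of all loci compared, -1.04. Prolamins, albumins and branching enzymes lie to the right, ribosomal proteins just right of 0, and metallothioneins, phenylalanine ammonia-lyases and mitochondrially encoded products far to the left.

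Root mineral uptake genes had grain values near 0. Lsi1 (LOC_Os02g51110), the silicon channel of root cells, stood at 143 FPKM in root and 0.0700 in grain, a log2 ratio of -7.07, with rank 494 in root and 20173 in grain. Lsi2 (LOC_Os03g01700), the silicon exporter that works with it, stood at 115 FPKM in root and was not listed in grain. NAR2.1 (LOC_Os02g38230), the partner of high-affinity nitrate transporters, stood at 102 and 0.520 FPKM. The phosphate transporter PT8 (LOC_Os10g30790) stood at 55.6 FPKM in root and 0.208 in grain, and the ammonium transporter AMT1;1 (LOC_Os04g43070) at 31.2 and 0.205. Of 9 uptake genes compared, 8 were called lower in grain and none higher, where 51.0% of all loci were called lower, and their median log2 ratio was -3.08. The exception, the manganese exporter MTP9 (LOC_Os01g03914), stood at 105 FPKM in root and 64.8 in grain.

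Some defining root genes were not seen in the root library. Nramp5, the main manganese and cadmium importer, RCc3, a root-specific protein, and the root patterning factors SHR1 and SCR1 were listed at 0 in Sharbati root, and their Lalat root values were 2.45, 6.39, 6.13 and 2.52 FPKM. In Sharbati grain these 4 stood at 0.0616, 0.234, 0.123 and 0.732 FPKM, levels that 1 fragment in the shallower root library exceeds over 1 kilobase. The root markers HKT2;1, PT6 and HMA3 stood at 3.55, 3.66 and 0.712 FPKM, levels that few fragments would give. CASP1 (LOC_Os04g58760), also of the root identity list, stood at 1.12 FPKM in root and was not listed in grain. The root label thus had Lsi1 and Lsi2 clearly on its side, while RCc3, SHR1 and SCR1 were at 0 in this shallower library. Most storage and endosperm starch genes were on the grain side. Leaf RNA was low in both, since no light-harvesting, photosystem or Rubisco small subunit locus exceeded 20.2 FPKM in grain or 38.2 FPKM in root.

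Genes that capture iron from the soil were low in grain. IRT1 (LOC_Os03g46470), the ferrous iron importer, stood at 15.0 FPKM in root and was listed at 0 in grain. DMAS1 (LOC_Os03g13390), the last enzyme in making the iron chelator deoxymugineic acid, stood at 12.2 FPKM in root and 0.404 in grain. The enzymes before it were barely registered in root: NAS1, NAS3 and NAAT1 were listed at 0 and NAS2 was not listed, while NAS2 stood at 1.49 FPKM in grain. Of the 10 genes of this list with an entry, DMAS1 and FRO2 were above 0 in both libraries, and FRO2 stayed under 1 FPKM.

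Iron translocation and storage genes were on the root side as well. FER1 (LOC_Os11g01530), a ferritin that holds iron in plastids, stood at 27.3 FPKM in root and 1.59 in grain. Its near-copy FER2 (LOC_Os12g01530) stood at 15.0 and 0.833 FPKM, and how reads were shared between the pair is not known. PEZ1 (LOC_Os03g37490), an exporter of phenolics into the xylem, stood at 16.6 and 0.0806 FPKM, and FRDL1 (LOC_Os03g11734), which loads citrate, at 8.31 and 0.0572. The vacuolar iron importer VIT2 (LOC_Os09g23300) stood at 8.58 FPKM in root and 0.148 in grain, and the mitochondrial importer MIT (LOC_Os03g18550) at 10.7 and 2.24. Of 8 genes compared, 7 were called lower in grain and none higher, where 51.0% and 14.0% of all loci were, and the median log2 ratio was -3.09. The exception was the iron-nicotianamine transporter YSL2 (LOC_Os02g43370), known to carry iron into the grain, at 10.8 FPKM in grain and 6.35 in root. With 1 fragment worth 1.06 FPKM over 1 kilobase in root, these root values rest on few fragments and the size of each ratio is loose.

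Iron regulators, as a group, split much as all loci did. IDEF1 (LOC_Os08g01090), which senses iron and sets the early response, stood at 28.9 FPKM in grain and 36.6 in root. IDEF2 (LOC_Os05g35170), a NAC factor of the same response, stood at 13.3 and 112 FPKM, and PRI1 (LOC_Os08g04390), a bHLH activator, at 35.3 and 131. The ubiquitin ligases HRZ1 (LOC_Os01g49470) and HRZ2 (LOC_Os05g47780), which restrain the response, stood at 7.99 and 10.8 FPKM in grain and at 4.03 and 3.92 in root. IRO2 (LOC_Os01g72370), an activator of chelator synthesis, stood at 4.30 FPKM in root and was listed at 0 in grain. Of 6 regulators compared, 3 were called lower and HRZ2 higher in grain, where 51.0% and 14.0% of all loci were. Their median was -0.67.

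Metallothioneins, small cysteine-rich metal binders, were higher in root. All 8 loci compared were called lower in grain, where 51.0% of all loci were, at a median of -4.79. The family summed to 2150 FPKM in root and 77.2 in grain. LOC_Os11g47809 stood at 576 FPKM in root and 6.94 in grain, and LOC_Os01g05650 at 435 and 36.5. LOC_Os05g11320 had the lowest ratio of the family, from 320 FPKM in root and 0.548 in grain. Of zinc carriers, MTP1 (LOC_Os05g03780), a vacuolar zinc importer, stood at 21.1 FPKM in grain and 28.2 in root, and HMA2 (LOC_Os06g48720), a zinc pump, at 6.95 and 7.03, so both were nearly even. The third zinc gene compared, the transporter ZIP7 (LOC_Os05g10940), was called lower in grain, at 0.267 FPKM against 3.44 in root, and ZIP1 (LOC_Os01g74110) stood at 3.45 FPKM in root and was not listed in grain.

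Phytate genes were mixed. RINO1 (LOC_Os03g09250), which makes the inositol phosphate that starts the path, stood at 139 FPKM in grain and 40.6 in root, and IPK1 (LOC_Os04g56580), the kinase of its last step, at 72.2 and 7.56. The vacuolar phytate carrier MRP5 (LOC_Os03g04920) stood at 3.45 FPKM in grain and 14.4 in root. SPDT (LOC_Os06g05160), which directs phosphorus to the grain from the nodes, stood at 0.223 and 11.4 FPKM. The remaining members were LPA1 (LOC_Os02g57400), an enzyme of phytate synthesis, at 18.9 FPKM in grain and 27.6 in root, and the transporter SULTR3;3 (LOC_Os04g55800), at 1.23 FPKM in grain and not listed in root. Of 5 genes compared, 2 were called higher and 2 lower in grain.

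**Figure D4:**
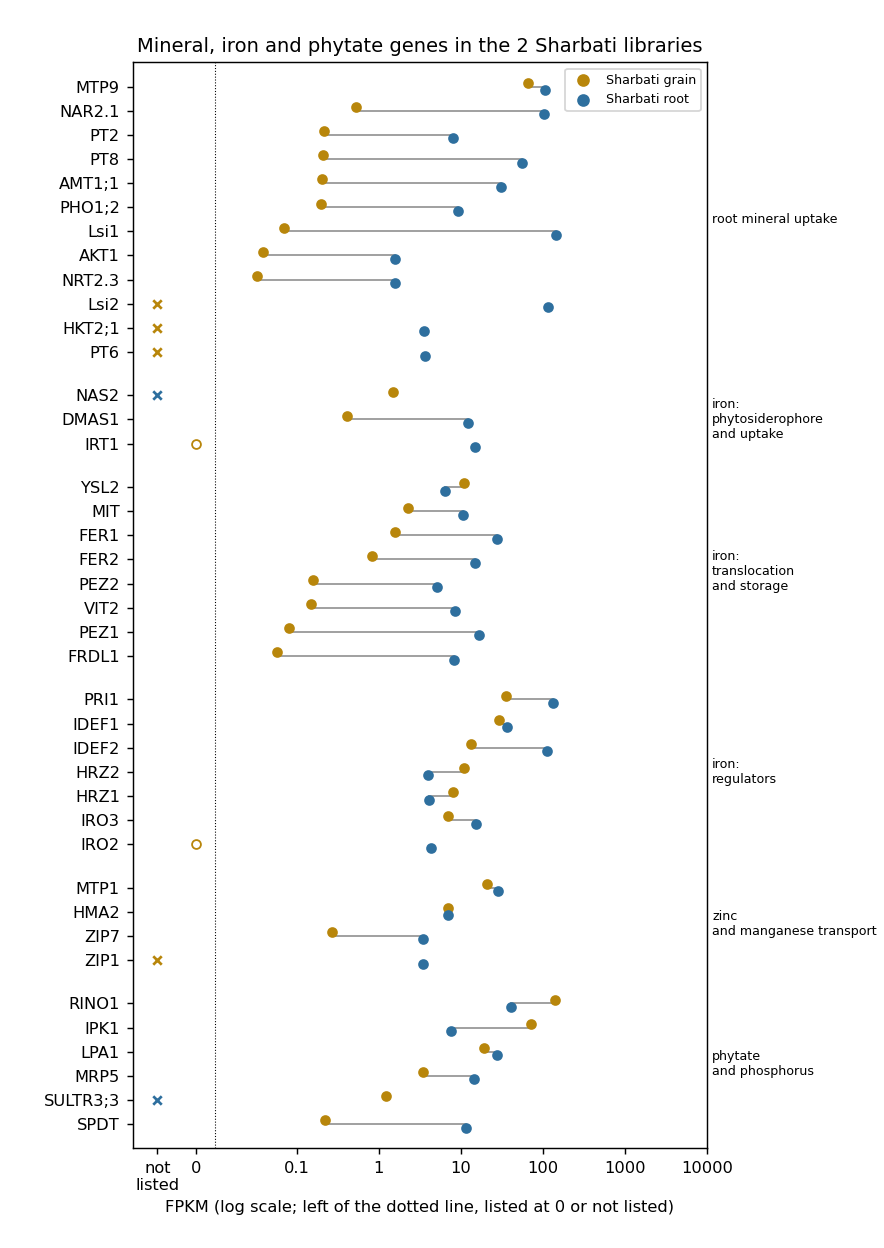
FPKM on a log scale of mineral, iron, zinc and phytate genes that reached 1 FPKM in Sharbati grain (gold) or Sharbati root (blue), with grey bars joining values of the same gene, open circles for values listed at 0 and crosses for loci not listed. Uptake and translocation genes lie to the left in grain, for example Lsi1 at 0.0700 against 143 FPKM, while IDEF1, MTP1 and HMA2 lie close together, ZIP7 and IDEF2 lie to the left in grain, and RINO1 and IPK1 lie to the right in grain.

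Aquaporins, channels for water and small solutes, held members of opposite kinds. LOC_Os10g35050 stood at 1212 FPKM in grain and 0.941 in root, a log2 ratio of 9.29. LOC_Os07g26690 stood at 1294 and 66.2 FPKM, and LOC_Os03g05290 at 179 and 11.2. Apart from these 3, no aquaporin was called higher in grain, and 16 of 20 compared were called lower, where 51.0% of all loci were. LOC_Os07g26630 stood at 0.328 FPKM in grain and 121 in root. The median of the family was -2.97, which turned to 1.33 over members at 10 FPKM or more in both.

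The share called higher in grain among loci compared differed between transcription factor families. Over all loci compared, 14.0% were called higher and 51.0% lower in grain. WRKY factors, many of them of defence, had none of 41 members compared called higher in grain and 31 called lower, at a median of -2.56. WRKY71 (LOC_Os02g08440) stood at 176 FPKM in root and 0.302 in grain. MADS-box factors had none of 15 higher and 9 lower, with a median of -2.99, and OsMADS56 (LOC_Os10g39130) stood at 53.9 FPKM in root and 0.117 in grain. AP2 and ethylene-responsive factors had 7 of 70 higher and 52 lower, and bHLH factors 2 of 28 higher and 21 lower. These counts leave out members not above 0 in root. Of members above 0 in grain, 28 of 45 MADS-box, 42 of 70 bHLH, 35 of 106 AP2 and 17 of 60 WRKY loci were above 0 in grain only. Of all 25305 grain loci, 11540 were. In that order, 6, 9, 4 and 1 of these members reached 1 FPKM in grain.

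NAC factors spanned the widest range. Of 36 compared, 27 were called lower and 5 higher in grain, and the median was -1.86. LOC_Os02g12310 stood at 1631 FPKM in grain and 1.05 in root, a log2 ratio of 9.64, and LOC_Os11g31330 at 650 and 0.844. LOC_Os05g34310 stood at 228 and 0.772 FPKM. These grain loci have no NAC number in the deposited descriptions. On the root side, LOC_Os10g42130 stood at 349 FPKM and was listed at 0 in grain, and LOC_Os08g42400 stood at 59.9 FPKM in root and 0.271 in grain.

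By median log2 ratio, the NF-Y and bZIP families were nearest to 0 of these families, with bZIP close to the -1.04 of all loci. Knotted-type homeobox loci, known from meristems, were on the root side, with LOC_Os02g08544 at 133 FPKM in root and 1.61 in grain. The bZIP locus LOC_Os06g45140 stood at 254 FPKM in grain and 25.6 in root. Homeobox factors had 3 of 20 higher and 15 lower, at a median of -2.48, and bZIP factors 3 of 24 higher and 14 lower, at -1.18. MYB factors had 6 of 60 higher and 41 lower, at a median of -1.61 that became 0.10 over members at 10 FPKM or more in both. The MYB locus LOC_Os02g41510 stood at 0.108 FPKM in grain and 141 in root, while LOC_Os02g42850 stood at 27.1 and 0.785. NF-Y subunits, which bind CCAAT boxes, had the median nearest to 0, at -0.14, though 1 of 14 was called higher and 6 lower. Another 12 of the 26 NF-Y members above 0 in grain were above 0 in grain only, as were 11540 of all 25305 grain loci. Of these 12, 8 reached 1 FPKM. For homeobox, MYB, bZIP and NAC factors, 36 of 56, 44 of 108, 19 of 44 and 27 of 66 were above 0 in grain only. Of these, 5, 8, 6 and 8 reached 1 FPKM.

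**Figure D5:**
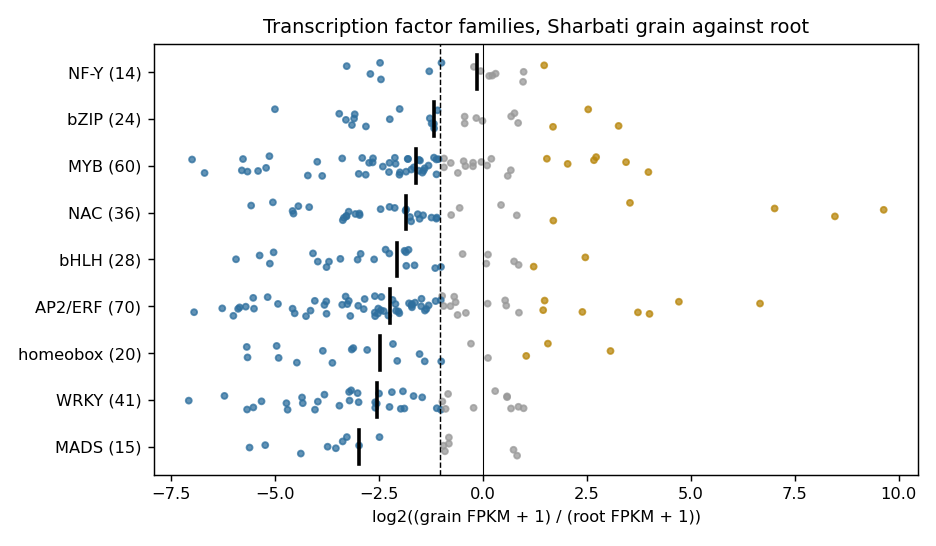
Each point is a transcription factor locus compared, placed by its log2 ratio of grain over root FPKM, gold at 1 or above, blue at -1 or below and grey between. The number of loci compared is in brackets, thick bars are family medians and the dashed line is the median of all loci compared, -1.04. Most families lie mainly to the left, NF-Y straddles 0 at a median of -0.14, WRKY and MADS have no gold point, and 3 NAC loci stand apart at log2 ratios of 7.01, 8.46 and 9.64.

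Genes of growth and protein synthesis went in different directions. Of 109 cytosolic ribosomal protein loci compared, 53 were called higher and 7 lower in grain, where 14.0% and 51.0% of all loci were. Their median log2 ratio was 0.81. Their summed FPKM was 17606 in grain and 10688 in root, but in Lalat it was 18956 in grain and 42547 in root. Another 8 ribosomal loci were above 0 in grain only, among them the S27 locus LOC_Os02g27769, at 2276 FPKM in grain and listed at 0 in root. This locus stood at 3782 FPKM in Lalat root. An exact 0 can be a failed estimate, so a listed 0 in Sharbati root is not proof of absence. Core histones, made mostly in dividing cells, were called lower in grain in 29 of 38 loci and higher in 2, at a median of -2.16. Translation factors were near even in FPKM, with 15 of 63 higher, 11 lower and a median of -0.03. Proteasome subunits had more lower than higher calls, with 5 of 32 higher, 12 lower and a median of -0.52. Both medians lay above the -1.04 of all loci. Of the reference genes often used in rice, eEF1A stood at 303 FPKM in grain and 265 in root, UBQ5 at 177 and 154, ACT1 at 95.1 and 121, and GAPDH at 119 and 58.7.

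Organelle-type transcripts moved with the root library. The 13 loci described as mitochondrially encoded products summed to 2448 FPKM in Sharbati root, 45.9 in Sharbati grain and 71.1 in Lalat root, and 12 of them were called lower in Sharbati grain. The plastid-type ycf68 loci LOC_Os04g16722 and LOC_Os04g16896 shared a root value of 6756 FPKM and a grain value of 95.8, against 78.5 FPKM in Lalat root. Their part in the other differences was not tested.

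Loci of 1 organ were counted at 20 FPKM or more. Of 2511 such loci in grain, 323 were not above 0 in root, 278 listed at 0 and 45 not listed. Of 3644 such loci in root, 144 were not above 0 in grain, 59 listed at 0 and 85 not listed. Besides the storage loci, the grain set held NF-YC12, NAC20 and RPBF, named above. The root set held LTPL118, the plastocyanin-like locus LOC_Os03g63390 at 1535 FPKM, the peroxidase LOC_Os10g02070 at 545 FPKM and the receptor-like kinase LOC_Os04g56430 at 385 FPKM.

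The same contrast in Lalat, which shares no library with this one, called 7.11% of 17533 loci higher and 59.7% lower in grain. Of the 5780 loci lower in Sharbati grain and compared in Lalat, 5095 (88.1%) were also lower in Lalat grain and 30 were higher. Of the 1749 loci higher in Sharbati grain, 433 (24.8%) were also higher in Lalat grain and 290 (16.6%) were lower. Of the 1771 loci higher in Sharbati grain, 1181 had a root value of 7.14 FPKM or less, the 95th percentile of the values that 1 fragment gave in root. Some of the strongest Sharbati grain loci were also far higher in grain in Lalat, with log2 ratios there of 7.89 for RAL4, 8.82 for Wx, 8.41 for BEIIb and 6.98 for AGPL2. For the prolamins PROLM4, PROLM14 and PROLM16 no ratio was taken in Lalat. Their Lalat grain entries were 0, which can be a failed estimate, and their Lalat root values were 208, 543 and 582 FPKM. PROLM20 and PROLM19 were also higher in Lalat grain, at log2 ratios of 2.80 and 2.43. Their Lalat grain values were low, 6.42 and 4.80 FPKM, against 0.0647 and 0.0757 in Lalat root. PROLM22, with 3.03 FPKM in Lalat grain, had no Lalat root entry.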

How the data were processed

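Poly(A) RNA of grain and root of the cultivars Sharbati and Lalat was sequenced from 1 library per organ and cultivar. The authors deposited FPKM values per transcript, per the file headers, with the grain libraries and the root libraries in separate tables. Per the submitters' processing notes, the tools were TopHat 1.3.3 with Bowtie 0.12.9 for the reads, and Cufflinks 1.3.0 and Cuffdiff; the genome build and annotation are not given in the sources used here. The submitters' design text says that genes with under 10 reads across the libraries were left out of their own tests.

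From these values, transcripts were reduced to loci by dropping the final number of their identifier and summing distinct values, and loci were matched between organs. A locus was compared when above 0 in both libraries and at 1 FPKM or more in at least 1, the ratio was taken with a pseudocount of 1 FPKM, and a 2-fold difference was counted. Ranks were taken among loci above 0 in each library, and the rank alternative counted a difference of 20 percentile points or more. The value of 1 fragment was read from loci whose deposited p-value equals the normal tail of 1 SD while the partner library stood at 0. The files do not state that reading, and no other depth was available. An exact 0 can be a failed estimate, so it was written as listed at 0 and given no ratio, and an absent locus was not taken as 0. With 1 library per organ there was no test.

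The named genes were the 10 highest loci of each library, up to 4 members of each gene list with the largest ratios, the 10 highest and 10 lowest ratios, the 10 highest loci of 1 organ, the 3 highest and 3 lowest of each transcription factor family, and reference genes, of which 1 is not reported here. Other loci given here were picked after their values were seen. The members, lists and rules were chosen with earlier results of these data known. Lists drawn by words in the deposited descriptions had their patterns corrected after the names were read, and 3 lists (plastocyanin-like, abscisic stress-ripening and phytosulfokine) were added after values were seen. Gene symbols of the literature were kept where the deposited description names the same kind of protein. YSL2 is described there as a transposon protein, Lsi2 as an expressed protein and AGPS2 as a large subunit, so these names rest on the locus identifier. Among loci compared, 146 share both values with another. The scripts, run with Python 3.11.15, pandas 2.3.3, numpy 2.4.6 and matplotlib 3.10.9, were tested on simulated data. Alternatives were other pseudocounts, filters, scalings, thresholds and rank differences.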

Additional observations from a re-analysis of the deposited data

Results flagged for a closer look

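The grain to root log2 ratio had opposite signs in the 2 cultivars, past 2-fold in both, for 7 named loci. Each cultivar has 1 library per organ, so the difference between cultivars was not tested. The ycf68 loci LOC_Os04g16722 and LOC_Os04g16896, which share their values, had -6.13 in Sharbati and 1.32 in Lalat. GAPDH (LOC_Os04g40950), a glycolytic enzyme used as a reference gene, had 1.01 in Sharbati and -3.01 in Lalat. HRZ2 (LOC_Os05g47780), the ubiquitin ligase of the iron response, had 1.27 and -1.49. The sucrose synthase SUS2 (LOC_Os06g09450) had 2.70 and -1.37. The bZIP factor LOC_Os06g45140 had 3.26 and -2.27, and the MYB factor LOC_Os07g02800 had 2.72 and -1.21.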

How the results depend on the processing

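No paired analysis was possible because each organ had 1 library. At a 4-fold threshold 752 loci were called higher and 3425 lower in grain. A pseudocount of 5 FPKM left 3866 lower. Requiring 10 FPKM in both libraries left 441 higher and 738 lower. Setting loci absent or at 0 to 0 raised the higher loci to 4209, and a difference of percentile ranks gave 3068 higher and 2891 lower. The median log2 ratio, -1.04, became -1.36 with a pseudocount of 0.1 FPKM, -0.48 with 5 FPKM, -0.90 with median-ratio scaling, -0.73 with equal totals without the 100 highest loci, -0.87 without a filter on level, -0.23 at 10 FPKM or more in both, and -0.80 with zeros set.

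List medians changed sign in 7 of 50 lists. At 10 FPKM or more in both, the median became 1.62 for lipid transfer proteins, 1.33 for aquaporins, 0.86 for protein disulfide isomerases and 0.10 for MYB factors. With absent loci set to 0, it became 1.13 for lipid transfer proteins, 2.50 for late embryogenesis proteins and dehydrins, and 1.22 for expansins. By ranks, that of light-harvesting proteins became 0.56. The 10 FPKM filter takes fewer members and the setting of absent loci takes more, the rank setting changes the measure, and the cause was not tested. Of 133 results for named genes, 120 kept their side of the 2-fold threshold under every setting run, 13 crossed it under at least 1, and none went from higher to lower or back.

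Depth limits the root side: with 1 fragment worth 1.06 FPKM per kilobase there, root values of a few FPKM and below are imprecise.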

Other observations

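Further families not described above had members on both sides. Heat shock proteins were near even in FPKM, with 25 of 80 loci compared called higher and 27 lower in grain. Their median log2 ratio was -0.32, against -1.04 over all loci. The DnaK chaperone LOC_Os12g14070 stood at 1333 FPKM in grain and 45.1 in root, while LOC_Os03g16860, of the same kind, stood at 2.65 and 841. Germins and cupins, wall and storage proteins of one fold, had 2 of 14 higher and 11 lower, led in grain by LOC_Os03g21790 at 97.5 FPKM against 1.89 in root.

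Bowman-Birk trypsin inhibitors, which block digestive proteases, had 6 of 7 lower and 1 higher in grain, at a median of -3.24. Over all loci compared, 51.0% were called lower and 14.0% higher. BBTI7 stood at 6.61 FPKM in grain and 265 in root, and BBTI5 at 41.0 and 13.1. Cysteine-rich receptor-like kinases had 14 of 16 lower and 1 higher, at a median of -2.23, and nitrate and peptide transporters 15 of 21 lower and 2 higher, at -1.70.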
